A study of Drosophila melanogaster with 3 samples.

Results

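The 26S proteasome is the complex that degrades proteins tagged with ubiquitin. Its core particle is a barrel of alpha and beta subunits, encoded by Prosalpha and Prosbeta genes, with the protein-cutting sites inside the beta rings. The regulatory particle caps the barrel and holds the Rpt subunits, a ring of ATPases that unfolds substrates, and the Rpn subunits, which bind ubiquitin, remove it and hold the particle together. Drosophila melanogaster also has copies of many subunit genes with a T or an R in their symbol, several of which are known to be made in the male germline. The binding of acj6 at these genes was examined in whole animals at the white prepupa stage, when larval tissues are broken down and adult tissues are built. Acj6 is a transcription factor with a POU domain and a homeodomain, best known for setting the identity of neurons in the olfactory system.

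The genes were taken from the Release 6 annotation by symbol: protein-coding genes on the main chromosome arms whose symbol starts with Rpn, Rpt, Prosalpha or Prosbeta and a number. The rule found 48 of 13945 protein-coding genes. Of these, 25 belong to the core particle and 23 to the regulatory particle. In each particle the copies marked T or R were kept apart (11 core and 5 regulatory copies), which left 32 general subunit genes, 14 of the core and 18 of the regulatory particle. No measured value entered the rule.

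The samples are 3 biological replicates of 1 group: white prepupae of mixed sex, of a transgenic strain that stably expresses acj6 with GFP fused to its C terminus. Chromatin of whole animals was sonicated and precipitated with an antibody against GFP. The labels name neither the promoter of the transgene nor whether untagged acj6 remained, and binding in few cells of a whole animal and weak binding in many cannot be told apart. There is no second group, so every comparison is between proteasome genes and all protein-coding genes, or between lists.

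For each replicate the authors deposited a list of 30000 regions that includes background, and they deposited a list of the same length from the pooled replicates. A further list holds the 8248 peaks that passed the irreproducible discovery rate (IDR) procedure, which compares the ranks of peaks between replicates. In the files these 8248 peaks were the 8248 regions of the pooled list with the highest signal value. To compare replicates on an equal footing, the 8248 regions with the highest signal value were taken from each replicate list and are called its strongest regions. A gene was called bound when the summit of a region, its highest point, lay within 1 kb of any annotated transcription start site (TSS) of the gene. Ranks run from 1 for the highest signal value of a list. The signal value is the authors' own and is not scaled between lists.

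The sequences around 4 bound summits are printed here. Rpn3 and Rpn5 had the strongest peaks of any proteasome gene. Rpn12, like Rpn3, held a DNA replication-related element (DRE), and Prosalpha4 was the 1 bound core gene. Each sequence spans 100 bases on either side of the IDR summit and is given in dm6 coordinates. It runs 5′ to 3′ on the gene's strand, read from NCBI's Release 6 genome sequence. Capitals mark the motif matches found: TATCGATA, the DRE, in Rpn3 and Rpn12, and TATAAA, the TATA box sequence, in Rpn5 and Prosalpha4. TATAAA was found in 39.3% of all IDR summits, and the summits at Rpn5 and Prosalpha4 lay 264 and 288 bp upstream of those genes.
Rpn3 (chr2L:19051687-19051887, + strand): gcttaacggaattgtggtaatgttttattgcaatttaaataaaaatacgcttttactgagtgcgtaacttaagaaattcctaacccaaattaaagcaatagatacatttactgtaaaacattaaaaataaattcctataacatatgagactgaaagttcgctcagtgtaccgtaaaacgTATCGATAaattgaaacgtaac
Rpn5 (chr3R:5789129-5789329, + strand): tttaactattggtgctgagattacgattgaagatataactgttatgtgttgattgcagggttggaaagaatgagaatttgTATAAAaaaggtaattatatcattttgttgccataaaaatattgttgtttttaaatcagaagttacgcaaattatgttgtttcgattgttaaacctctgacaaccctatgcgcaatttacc
Rpn12 (chr3L:16582808-16583008, + strand): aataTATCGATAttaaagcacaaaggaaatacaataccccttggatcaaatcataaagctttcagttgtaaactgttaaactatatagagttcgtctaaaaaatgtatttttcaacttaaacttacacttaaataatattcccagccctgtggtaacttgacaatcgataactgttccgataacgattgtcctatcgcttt
Prosalpha4 (chrX:16275882-16276082, + strand): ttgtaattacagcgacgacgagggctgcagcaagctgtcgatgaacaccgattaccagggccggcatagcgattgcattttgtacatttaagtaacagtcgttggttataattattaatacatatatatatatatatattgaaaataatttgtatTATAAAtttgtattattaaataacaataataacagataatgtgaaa

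In the IDR list 6 of 48 proteasome genes were bound (12.5%, exact 95% binomial interval 4.73 to 25.2%), against 24.4% of all protein-coding genes. These were Rpn3, Rpn5, Rpn11, Rpn12 and Rpn13 of the regulatory particle and Prosalpha4 of the core particle. The interval covers counting error only and takes in the share of all genes. The 48 include the 16 copies, none of which was bound. Of the 32 general subunits 6 were bound (18.8%, interval 7.21 to 36.4%). Bound genes were thus a minority of the proteasome genes, and 5 of the 6 were of the regulatory particle.

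The general subunits of the regulatory particle held most of the peaks. Of these 18 genes 5 were bound (27.8%, interval 9.69 to 53.5%), against 1 of 14 general core genes (7.14%, interval 0.181 to 33.9%), and the intervals overlap widely. The share over the 18 regulatory genes was close to that over all protein-coding genes, which is no result about them. None of the 16 copies marked T or R was bound, a count of 0 that allows a share of up to 20.6%. The following splits were made after the values were seen. All 5 bound regulatory genes encode Rpn subunits, 5 of 12 general Rpn genes (41.7%, interval 15.2 to 72.3%), and none of the 6 general Rpt genes was bound (interval up to 45.9%). Of the 8 Rpn genes whose products form the lid, the part of the cap that removes ubiquitin chains (Rpn3, Rpn5, Rpn6, Rpn7, Rpn8, Rpn9, Rpn11 and Rpn12), 4 were bound (interval 15.7 to 84.3%). The lid's small subunit Sem1, whose symbol is outside the rule, was not bound. All 3 intervals take in the 24.4% of all genes. In the core particle 1 of 7 general alpha genes and none of the 7 general beta genes was bound.

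Each replicate list gave a lower share for proteasome genes than for all genes. Among the strongest regions, replicate 1 had 8 bound proteasome genes (16.7%), against 26.5% of all genes. Replicate 2 had 4 (8.33%), against 24.4% of all genes, and replicate 3 had 6 (12.5%), against 26.0% of all genes. The mean share was 12.5 ± 4.17% of proteasome genes and 25.6 ± 1.10% of all genes (SD, n = 3 replicates). The difference averaged -13.1 ± 3.13 percentage points and lay between -16.1 and -9.84 points, so it had the same sign in 3 of 3 replicates and exceeded their spread. The members are the same 48 genes in each replicate, so this spread says nothing of chance among genes, and no test was made. They include the 16 copies, none of which was bound in any replicate. For the 32 general subunits alone the difference averaged -6.89 ± 5.21 points and lay between -11.9 and -1.51 points.

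The classes kept their order in the replicates. Of the 18 general regulatory genes 7, 3 and 5 were bound in replicates 1, 2 and 3 (27.8 ± 11.1%), of the 14 general core genes 1 in each (7.14%), and of the 16 copies none in any. The core gene was Prosalpha2 in replicate 1 and Prosalpha4 in replicates 2 and 3, so the equal counts do not stand for the same gene. General Rpn genes were bound 7, 3 and 5 times out of 12, and general Rpt genes 0 times out of 6 in each replicate. The share of general regulatory genes minus that of all genes was 12.4 points in replicate 1 and -7.74 points in replicate 2 (mean 2.14 ± 10.1 points). For general core genes it was below 0 in every replicate (mean -18.5 ± 1.10 points). With 1 core gene bound in each replicate, this SD is only that of the share of all genes. With all regions of each list the difference for general core genes averaged -12.0 ± 12.3 points and reached 0.914 points in replicate 3.

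**Figure D1:**
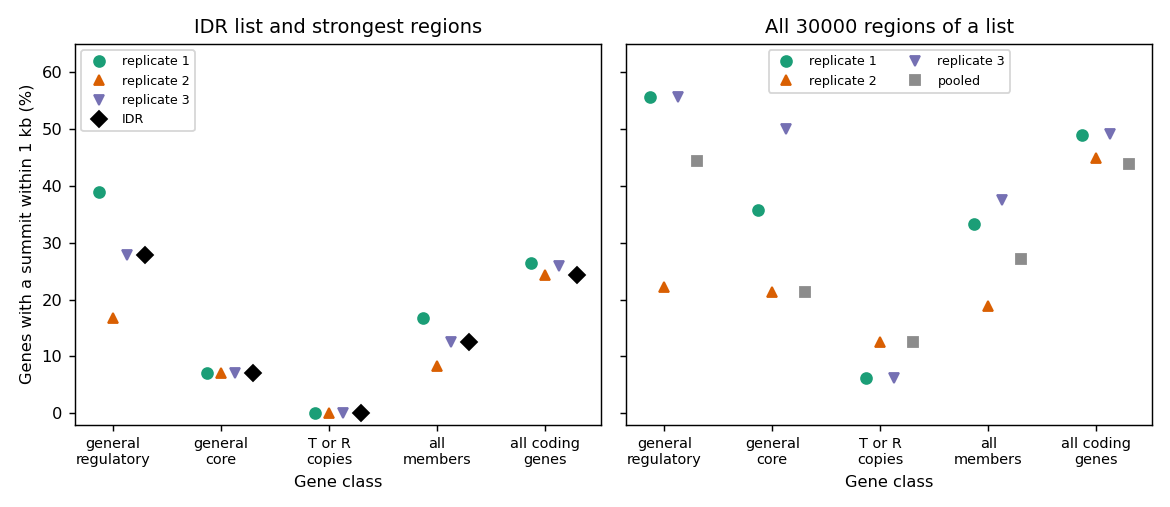
Share of genes with a summit within 1 kb of a TSS (vertical axis, percent) in each gene class (horizontal axis), with 1 point per list. The left panel has the IDR list and the strongest regions of each replicate, the right panel all regions of the replicate and pooled lists. In the left panel the copies marked T or R sit at 0 in every list and general core genes at 7.14%, while general regulatory genes spread from 16.7 to 38.9%.

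When all 30000 regions of a list were used, background included, more proteasome genes and more genes at large had a summit nearby. Of the proteasome genes 16 had one in replicate 1 (33.3%, against 49.0% of all genes), 9 in replicate 2 (18.8%, against 44.9%) and 18 in replicate 3 (37.5%, against 49.1%). The mean was 29.9 ± 9.85% of proteasome genes and 47.7 ± 2.36% of all genes, a difference of -17.8 ± 7.54 points that was below 0 in 3 of 3 replicates. For the 16 copies the difference averaged -39.3 ± 5.97 points. For the 32 general subunits it averaged -7.04 ± 14.2 points, less than its spread, and was 4.04 points in replicate 3 (53.1%, against 49.1% of all genes). In the pooled list 13 proteasome genes had a summit (27.1%), against 43.8% of all genes. Replicate 2 gave the lowest count of proteasome genes under both rules, and it was also the lowest for all genes, by a smaller margin.

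Rpn3, which encodes a lid subunit (FBgn0261396, dm6 2L:19051790-19053681, plus strand), had the strongest proteasome peak. Its region spanned 19051709 to 19051902, with the summit at 19051787, 3 bp upstream of a Rpn3 TSS and outside protein-coding genes. The peak ranked 1019 in the IDR list, with a signal value of 479. In replicates 1, 2 and 3 it ranked 1048, 985 and 1092, with summits 4 bp upstream, 5 bp upstream and 4 bp downstream of the TSS. The replicates thus placed this peak within a few bases of each other and at nearly the same rank. The gene l(2)37Bb starts 178 bp upstream on the opposite strand, farther from the summit than Rpn3. The capitals in the printed Rpn3 sequence, the DRE, lie on its 3′ side, past the TSS.

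Rpn5 (FBgn0028690, 3R:5789493-5791569, plus strand), another lid subunit gene, had 2 IDR peaks. The stronger ranked 1040 with a signal value of 474, and its summit at 5789229 lay 264 bp upstream of Rpn5 but only 155 bp from a TSS of Hat1, in an intron of that gene. Hat1 is named for a histone acetyltransferase, and its start lies 109 bp from that of Rpn5 on the opposite strand. The second peak ranked 3431, with its summit at 5789437, 56 bp upstream of Rpn5 and 53 bp from Hat1. In replicates 1, 2 and 3 the stronger peak ranked 1164, 914 and 1124, with summits 227, 245 and 227 bp upstream of Rpn5. By nearest TSS both IDR peaks belong to Hat1, the second by 53 against 56 bp. In replicates 1, 2 and 3 the second peak had summits 26, 46 and 22 bp upstream of Rpn5, nearer to Rpn5 than to Hat1. It ranked 11618, 9001 and 7998 there. Rpn5 thus counts as bound through a stronger peak nearer to its neighbour and a weaker one between the 2 starts.

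Rpn11 (FBgn0028694, 2L:5058404-5059790, minus strand) encodes the lid's deubiquitinase, the metalloprotease that cuts ubiquitin chains from substrates. Its IDR peak had the summit at 5059974, 184 bp upstream and outside protein-coding genes, ranked 3278 and had a signal value of 220. A second IDR summit, ranked 7643, lay 387 bp upstream. Replicates 1 and 3 had the peak at rank 3149 (244 bp upstream) and 2914 (136 bp upstream), but replicate 2 had no region within 1 kb, its nearest summit being 4034 bp upstream. Replicates 1 and 3 thus ranked the peak alike, and replicate 2 had no such region among its 30000.

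Rpn13 (FBgn0033886, 2R:13958545-13960404, minus strand), the gene of a ubiquitin receptor, was bound in all 3 replicates. The IDR summit at 13960485 lay 81 bp upstream and outside protein-coding genes, with rank 5445 and a signal value of 143. In replicates 1, 2 and 3 the peak ranked 4879, 6892 and 5052, with summits 34, 9 and 35 bp upstream. Every replicate therefore placed the summit closer to the TSS than the pooled peak did. CtsL1, a cathepsin gene, starts 271 bp upstream on the opposite strand.

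By the strongest peak of each gene, Rpn12 and Prosalpha4 had the lowest signal values of the 6 bound genes. At Rpn12 (FBgn0028693, 3L:16583028-16584022, plus strand), a lid subunit gene, the IDR summit at 16582908 lay 120 bp upstream and ranked 7550, with a signal value of 104. It was among the strongest regions of no replicate: it ranked 11065 in replicate 1 and 9239 in replicate 3, and replicate 2 had no summit within 1 kb (the nearest lay 1604 bp upstream). At Prosalpha4 (FBgn0004066, X:16276270-16277587, plus strand), which encodes a subunit of the outer ring of the core particle, the IDR summit at 16275982 ranked 8082 with a signal value of 96.3, near the end of the list. It lay 288 bp upstream of Prosalpha4 but 65 bp from a TSS of kat80, in an intron of that gene. The peak ranked 7221 and 7245 in replicates 2 and 3, and the best region of replicate 1 ranked 13603. The peak at the 1 bound core gene was thus nearer to the start of another gene and outside the strongest regions of 1 replicate.

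**Figure D2:**
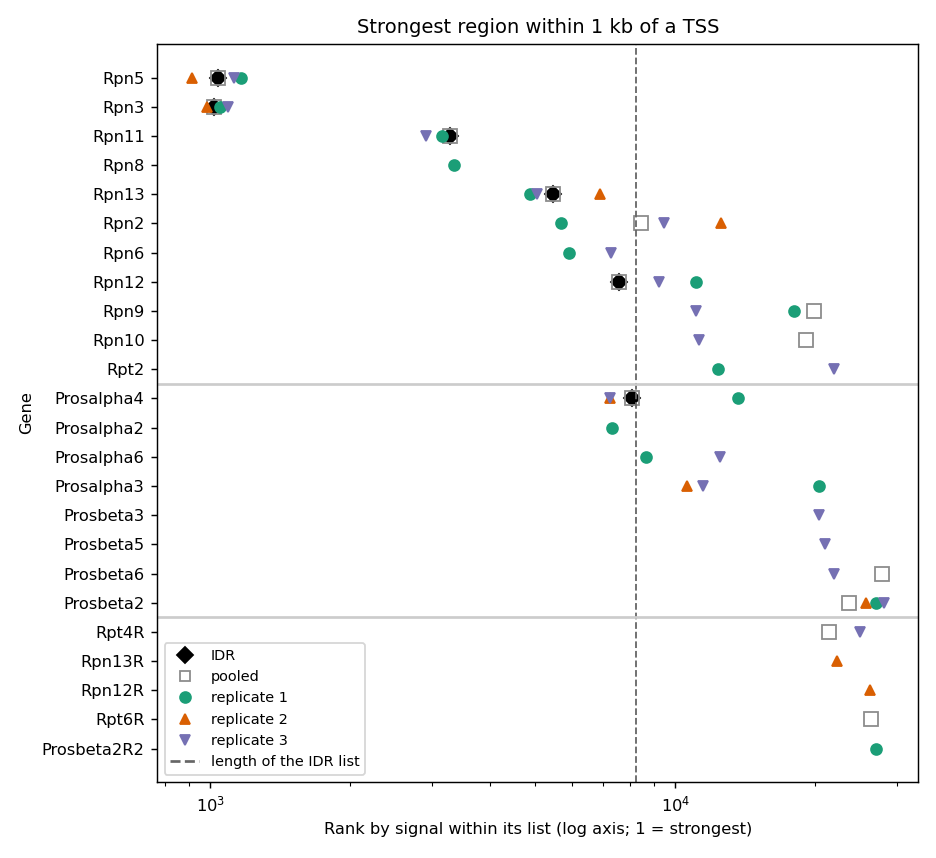
Rank of the strongest region within 1 kb of a TSS (horizontal log axis, 1 is the strongest) for each proteasome gene that had such a region in any list (vertical axis), with a symbol for each list. The dashed line marks the length of the IDR list, 8248. Grey lines part general regulatory genes (top), general core genes (middle) and copies marked T or R (bottom). The symbols of Rpn3 and Rpn5 lie close together between ranks 914 and 1164, and no copy has a region left of the dashed line.

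Only Rpn3, Rpn5 and Rpn13 were bound in the strongest regions of all 3 replicates, 3 of 48 genes (6.25%), against 20.4% of all genes. Another 3, Rpn11, Rpn6 and Prosalpha4, were bound in 2 replicates, and Rpn2, Rpn8 and Prosalpha2 in 1. In all, 9 of 48 proteasome genes were bound in at least 1 replicate (18.8%), against 31.1% of all genes. Of the 6 proteasome genes bound in the IDR list 3 were bound in all 3 replicates, against 2797 of 3399 protein-coding genes.

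The genes bound in some replicates but outside the IDR list, named after their values were seen, were mostly of the regulatory particle. Rpn2 encodes the scaffold on which lid and base meet. Its peak ranked 5691 in replicate 1, 12512 in replicate 2 and 9442 in replicate 3, and its pooled rank of 8428 (signal value 92.0, summit 92 bp upstream) lay just past the 8248 of the IDR list. At Rpn6, a lid subunit gene, the peak ranked 5902 and 7269 in replicates 1 and 3, with summits 114 and 140 bp upstream of a TSS in an intron of Rpn6. Replicate 2 and the pooled list had none. Rpn6 was therefore 1 of 6 proteasome genes bound in 2 or 3 replicates that had no pooled region within 1 kb, against 232 of 3543 protein-coding genes. At Rpn8, another lid subunit gene, replicate 1 alone had a peak, of rank 3335, 138 bp from the TSS of Slik. At Prosalpha2, of the outer ring of the core, replicate 1 alone had a peak, of rank 7304, 124 bp upstream and in the 3′ UTR of CG5245.

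Weaker regions of the pooled list lay at 6 further genes. Rpn10, the gene of a ubiquitin receptor, had one at rank 19048 with the summit 19 bp upstream of a TSS. Rpn9, a lid subunit gene, had one at rank 19856, 211 bp upstream of a TSS. At Prosbeta2, which encodes the subunit with trypsin-like activity, the region ranked 23620, and its summit was 284 bp from the gene but 1 bp from a TSS of mRpL39. At Prosbeta6 the region ranked 27777, 76 bp upstream. Of the copies, Rpt4R had a region at rank 21350 (27 bp upstream) and Rpt6R one at rank 26316 (138 bp upstream). All 6 rank in the weaker part of a list that includes background, and among replicates only Prosbeta2 had a region in all 3.

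Regions of any rank were found at 23 of 48 proteasome genes in at least 1 replicate (47.9%), against 61.6% of all genes, and at 7 in all 3 (14.6%), against 34.8% of all genes. The 7 were Rpn2, Rpn3, Rpn5, Rpn13, Prosalpha3, Prosalpha4 and Prosbeta2. No replicate had a region within 1 kb at the other 25. Those were 12 copies, the general core genes Prosalpha1, Prosalpha5, Prosalpha7, Prosbeta1, Prosbeta4 and Prosbeta7, and the general regulatory genes Rpn1, Rpn7, Rpt1, Rpt3, Rpt4, Rpt5 and Rpt6. Of the 6 general Rpt genes Rpt2 alone had a region, at rank 12319 in replicate 1 and 21879 in replicate 3. Among the copies, Prosbeta2R2, Rpn12R, Rpn13R and Rpt4R each had 1 in a single replicate, at ranks from 22278 to 27012.

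By the strongest peak of each gene, the bound summits lay mostly upstream of the genes' starts and were of middle rank. In the IDR list all 6 were upstream, at a median of -152 bp (-288 to -3 bp), against a median of -161 bp and 82.2% upstream for all bound genes. The median rank of the strongest peak was 4361.5 at the bound proteasome genes (1019 to 8082), against 2836 at all bound genes. In the strongest regions of replicates 1, 2 and 3 the median ranks were 4107, 3938.5 and 3983 at proteasome genes, against 3002, 2884 and 3048 at all bound genes. The proteasome peaks that passed were thus lower in rank than those of a typical bound gene in each list, with 4 to 8 proteasome genes behind each median.

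**Figure D3:**
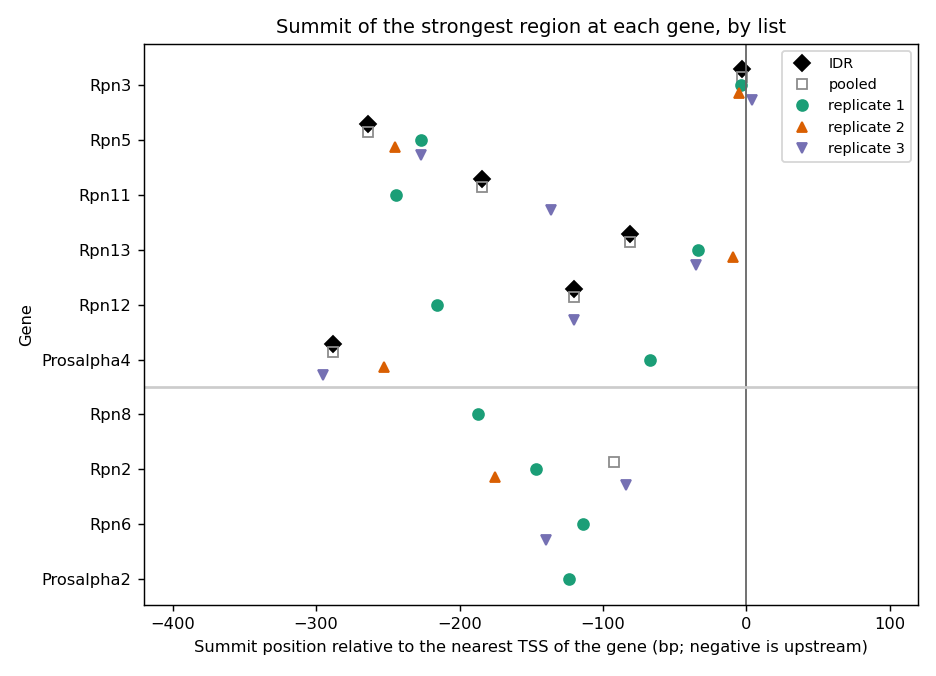
Position of the summit of the strongest region relative to the gene's nearest TSS (horizontal axis, bp, negative is upstream) for the 6 genes bound in the IDR list (above the grey line) and the 4 bound among the strongest regions of a replicate only (below it). Symbols stand for the lists. Summits of Rpn3 lie within 5 bp of the TSS in every list. At Prosalpha4 the strongest region of replicate 1 is at -67 bp, against -253 and -295 bp in replicates 2 and 3. Weaker regions, not drawn, also lay at -361 bp in replicate 1 and at -88 bp in replicate 3.

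Proteasome genes, bound ones included, lay at very different distances from acj6 peaks. The nearest IDR summit was a median of 7137 bp from the TSSs of proteasome genes, against 5741 bp for all genes. The median was 4902.5 bp for general regulatory genes, 5138.5 bp for general core genes and 13065 bp for the copies. A summit lay within 5 kb of 18 of 48 proteasome genes (37.5%), against 46.8% of all genes. It did so for 16 of 32 general genes and 2 of 16 copies (12.5%), and 11 of the 16 copies had none within 10 kb (68.8%, against 35.2% of all genes). The farthest was Rpt4R, with its nearest summit 60947 bp away. The copies thus stood far from acj6 peaks, and general subunits were about as near to a peak as genes at large.

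Several general genes had strong peaks a few kb away that lay nearer to other genes. Prosbeta6 was the closest outside the 1 kb limit, with a summit 1107 bp away and 36 bp from a TSS of CG4098, whereas the farthest summits inside the limit were the second summit of Rpn11 at 387 bp and that of Prosalpha4 at 288 bp. Rpn2 came next, with an IDR summit 1585 bp away and 145 bp from a TSS of eIF2D. Rpt5 had a peak of rank 86 at 5326 bp, 137 bp from a TSS of PTPMT1, and Rpt2 a peak of rank 160 at 2879 bp, 525 bp from a TSS of CG5854. These last 2, chosen after their values were seen, are stronger than any peak within 1 kb of a proteasome gene.

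**Figure D4:**
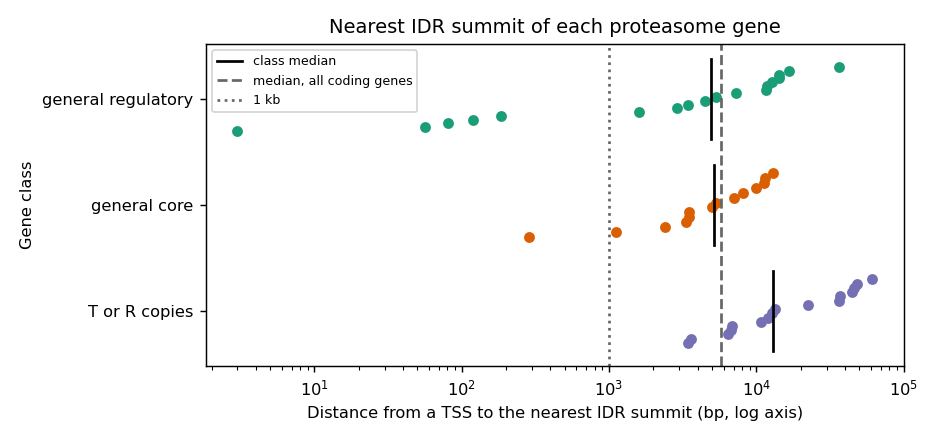
Distance from a TSS to the nearest IDR summit (horizontal log axis, bp) for each general regulatory gene, general core gene and copy marked T or R, with 1 point per gene. Points are stacked upward in order of distance only to keep them apart. Black bars mark the class medians of 4902.5, 5138.5 and 13065 bp, the dashed line the median of all protein-coding genes (5741 bp) and the dotted line 1 kb. The 5 bound general regulatory genes and 1 core gene lie left of the dotted line, and no copy does.

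Many general subunit genes start back to back with another gene. A protein-coding TSS on the opposite strand lay within 1 kb upstream of 22 of 48 proteasome genes (45.8%), against 35.2% of all genes. The count was 10 of 14 for general core genes (71.4%), 9 of 18 for general regulatory genes and 3 of 16 for the copies (18.8%). Of the 22 divergent proteasome genes 4 were bound (18.2%), against 37.3% of all divergent genes, and of the other 26 genes 2 were bound (7.69%), against 17.3%. Proteasome genes were below all genes in both settings. Of the 19 divergent general subunits 4 were bound (21.1%). Of the 13 general subunits that were not divergent 2 were bound (15.4%), close to the 17.3% of all such genes. The other 13 of the 26 were copies, none of them bound. The general core genes, most often divergent, were seldom bound.

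The promoters of general subunits held the DRE more often than promoters at large. It is the site of the factor DREF that acts at many Drosophila housekeeping genes. In the window from 250 bases before to 50 after the annotated 5′ end, on both strands, TATCGATA was found in 12 of 48 proteasome promoters (25%), against 9.36% of all promoters. All 12 were general subunits (12 of 32, 37.5%), and none of the 16 copies had one. Of the 6 bound genes 3 had a DRE (Rpn3, Rpn12 and Rpn13), as did 9 of the 26 general genes that were not bound (34.6%). At Rpn3 the promoter match is not the DRE printed above, which lies past the end of the promoter window. Over all bound genes the share was 12.1%. The DRE was thus present in bound and unbound general subunits alike, with 6 bound genes too few to tell their shares apart.

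No other motif searched exceeded its share over all promoters by as large a factor. TGACNNNGC, the antioxidant response element read by CncC, a factor known to raise proteasome gene expression in flies, was in 6 of 48 promoters (12.5%, against 8.63%), those of Prosalpha2, Prosbeta3, Prosbeta4R2, Rpn1, Rpn7 and Rpt6, none of them bound. The octamer ATGCAAAT was in none of the 48, against 3.47% of all promoters, and ATTAATGAG, a short form of a class IV POU site, was in none, against 0.351%. TATAAA was in 18 of 48 (37.5%, against 45.8%). GAGAG was in 9 of 48 (18.8%, against 29.7%), 6 of them copies. CACGTG was in none, against 4.20%. Proteasome promoters were also poorer in GC, with a median of 33.2%, against 38% of all promoters.

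Within 100 bases of the summit of the strongest IDR peak at each of the 6 bound genes, the DRE was found at Rpn3 and Rpn12, as printed above, and in 1.76% of all IDR summits. TATAAA was found at Rpn5, Rpn11 and Prosalpha4, and in 39.3% of all IDR summits. GAGAG was found at Rpn13, and in 20.2% of all. The octamer, the POU short form, the antioxidant response element and CACGTG were found at none of these 6 summits, with shares of 3.18, 0.364, 3.83 and 1.54% over all IDR summits. GC content at the 6 summits was 26.4 to 31.3%, against a median of 33.3% over all IDR summits.

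Among genes that assemble, regulate or feed the proteasome, a larger share was bound than among the 48 subunit genes or the general subunits (18.8%). The genes were chosen with earlier results known, and the difference was not tested. The list searched held 27 genes, 18 such partners and 9 genes of the COP9 signalosome, of which 26 were matched in the annotation (Ecm29, a partner, was not). Of 17 partners matched 7 were bound (41.2%), against 24.4% of all genes. The strongest was at cnc, which encodes CncC, with rank 896, a signal value of 508 and the summit 317 bp downstream of a TSS. Pomp, the maturation factor of the core particle, had a peak at rank 1913, at -289 bp from a TSS, and ntc, an F-box protein gene of the male germline, one at rank 2619, at -89 bp and as near to CG32264. PI31, which encodes a proteasome regulator, had one at rank 4055. Ubi-p63E, a polyubiquitin gene, had one at rank 3272. Npl4, a cofactor of the unfoldase TER94, had one at rank 5076, and Uba1, the ubiquitin-activating enzyme, one at rank 6170. Uba1 was among the strongest regions of 2 replicates and the other 6 among those of all 3. The matched partners that were not bound were Sem1, Uch-L5, Usp14, REG, rngo, Ter94, Ufd1-like, Ubqn, Rad23 and Ubi-p5E. No interval was computed for the share of 7 in 17, so no difference from 24.4% or 18.8% can be read from it.

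The COP9 signalosome, a complex built like the proteasome lid that acts on ubiquitin ligases, gave 1 bound gene of 9 (11.1%), against 24.4% of all genes. That gene was alien, which encodes its second subunit, with rank 3164 and the summit at -173 bp, nearer to a TSS of CG18661. Both lists together had 8 bound genes of 26 (30.8%).

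One pair of proteasome genes could not be judged by its surroundings. Of the 50-base stretches within 1 kb of the 5′ ends of Prosalpha1 and its tandem copy Prosalpha1R, none was unique on the main chromosome arms. At the other 46 genes at least 95% were unique there. Sequence outside these arms was not searched. How reads with several matches were treated is not given in the sources used here. Without the pair, 6 of 46 proteasome genes were bound in the IDR list (13%), and in the strongest regions of replicates 1, 2 and 3 the shares were 17.4, 8.70 and 13%. For the copies the count became 0 of 15 and for the core particle 1 of 23 (4.35%).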

How the data were processed

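Sonicated chromatin of 3 biological replicates of acj6-GFP white prepupae was precipitated with an antibody against GFP, per the labels. Reads were aligned to dm6, per the labels. Neither aligner and caller nor the cut-off of the IDR procedure was stated (not given in the sources used here). Replicate, pooled and IDR lists were deposited by the authors, each with a signal value for every region and, per the text files deposited with them, called against 1 control shared by the replicates. The signal is not scaled between lists and only ranked regions within a list. The lists hold no read counts, so depth is unknown, and precision comes from the number of genes and the spread between replicates. The dm3 lists and the control experiment were not analysed here.

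Positions were set against Ensembl's annotation and NCBI's sequence of Release 6, both in dm6 coordinates. Genes were called bound by the 1 kb rule over all their TSSs. The members, gene lists, motifs and measures were chosen with earlier results of these data known, so shares are set beside those of all protein-coding genes with no test of the list. Intervals are exact 95% Clopper-Pearson binomial intervals and cover counting error only. Members named were those bound in the IDR list or in all 3 replicates, and up to 4 others per class with the strongest pooled region within 1 kb. Others were named after their values were seen, as were the lid, Rpn, Rpt and ring classes. The promoter window ran from 250 bases before to 50 after the annotated 5′ end. Alternatives covered TSS distance, TSS choice, region overlap, peak strength, replicate coverage and the pooled list.

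The calculations used Python 3.11.15, numpy 2.4.6, pandas 2.3.3, scipy 1.17.1 and matplotlib 3.10.9, and were tested on simulated regions with known distances.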

Additional observations from a re-analysis of the deposited data

How the results depend on the processing

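Bound genes were recounted under other settings. The 6 bound proteasome genes became 6 at 500 bp from a TSS, 8 at 2 kb, 6 by region overlap, 6 by the annotated 5′ end alone and 4 when each summit counted for its nearest TSS only, which lost Rpn5 and Prosalpha4. They became 3 in the stronger 50% of the IDR peaks (Rpn3, Rpn5 and Rpn11) and 13 in the whole pooled list. Under 2 coverage rules they became 3 (Rpn3, Rpn5 and Rpn13). These rules kept an IDR peak that the strongest regions of all 3 replicates covered, over at least 50% of its length or by any overlap. With 1 replicate left out the count was 3 to 4. No list was remade without a replicate. The IDR peaks, made from all 3 replicates, were kept where the strongest regions of each remaining replicate covered them. The same settings took all protein-coding genes to between 16.0 and 43.8%, above the proteasome genes in each. For the core particle the count of 1 became 2 at 2 kb, 0 by nearest TSS, 0 in the stronger 50%, 0 under both coverage rules, 0 to 1 with a replicate left out (0 without replicate 2 or 3) and 3 in the whole pooled list. For the regulatory particle the count of 5 became 3 in the stronger 50%, 3 under both coverage rules, 3 to 4 with a replicate left out and 10 in the whole pooled list. For the general subunits the count of 6 became 3 in the stronger 50% (9.38%, against 16.0% of all genes). It became 3 under both coverage rules, 3 to 4 with a replicate left out and 11 in the whole pooled list (34.4%, against 43.8%). The share of general subunits was below that of all genes in each setting. The copies stayed at 0 except in the whole pooled list, which had 2. Without replicate 3 the counts were 3 of all proteasome genes and 3 of the regulatory particle, and without replicate 1 they were 4 and 3. The mean share of 12.5% over replicates became 29.9% with all regions and 10.4 to 14.6% with 1 replicate left out of the mean, a setting added after seeing the data. Fewer or more regions enter these counts by construction. No paired analysis was possible because there was 1 group with 1 sample per replicate number. Depth is unknown, so a missing peak cannot be told from one too weak to be called.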
